A study of Saccharomyces cerevisiae with 37 samples.

Results

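The first 5 min after a shift from 26 °C to 37 °C were examined in 4 cultures of budding yeast, with 12 of the 37 arrays of the series: in each culture, both arrays at time 0 and the array at 5 min. For every gene and culture the change was taken as the 5 min value minus the mean of both time 0 values, less that difference for the median gene. The series was made to follow how transcripts decay once transcription is switched off. The strain, Y262, has an RNA polymerase II that fails at high temperature, so the shift itself is both the stop signal and a mild heat shock. All cultures grew in rich medium (YPD) to mid-log phase at 26 °C, and at time 0 an equal volume of medium at 49 °C was added, which also dilutes anything dissolved in the culture. Reference 1 and reference 2 received no agent. The oxidative stress culture had been exposed to hydrogen peroxide at 0.3 mM for 25 min when it was shifted. The DNA damage culture had been exposed to 0.1% MMS (methyl methanesulfonate, which alkylates DNA) for 40 min. The 25 and 40 min are read in the order in which the labels name the stresses. Each stress had 1 culture, each culture had 1 array at 5 min, and the arrays at time 0 are technical replicates.

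Heat shock in yeast acts mainly through a pair of programmes. The factor Hsf1 switches on chaperones, proteins that keep others folded or dissolve their aggregates, and the factors Msn2 and Msn4 switch on a general stress response with trehalose, glycogen and antioxidant genes. Growth genes, above all those for assembling ribosomes, are shut off in the same minutes, and their transcripts are among the less stable in the cell. A transcript that is made for a short time after the shift is higher at 5 min on the scale used here. A transcript that decays more slowly than the median transcript is also higher, and which of these applies to a gene was not tested. The same holds for less synthesis and faster decay among transcripts that are lower. The cDNA was primed from poly(A) tails, so a change of tail length also enters the signal.

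Before any centring, the median gene changed by 0.040 log2 units in reference 1, −0.54 in reference 2, −0.22 with oxidative stress and −0.28 with DNA damage. The 12 bacterial spike-in probe sets changed by a median of 0.056, −0.14, −0.062 and −0.057 in the same order. A rise below is therefore a rise relative to the median gene of that culture, not of the amount per cell. The median gene also differed between both time 0 arrays of a culture, by 0.46, 0.13, 0.36 and 0.018 in the same order of cultures. In reference 1 and with oxidative stress this offset exceeded the uncentred change of the median gene. With the medians taken off, the technical noise of single genes was small. The standard deviation (SD) of the difference between both time 0 arrays was then 0.059 to 0.087 over 3915 genes. For the change from 0 to 5 min it was 0.31 to 0.43, and no gene differed 2-fold between the arrays of a pair. The oxidative stress culture stood apart in 1 control: the probe set for 5.8S ribosomal RNA lay at −2.30 relative to the median gene at time 0, and between −0.42 and 0.075 in the other cultures. Its part in the results was not tested. For gene lists, the count without a culture is given for the leading lists and wherever leaving that culture out moved a count above 5 by over 1.5 times.

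The mean change of the 4 cultures was tested for all 3915 genes at once with limma's moderated test, with Benjamini-Hochberg adjustment and a threshold of 0.05. The test treats the 4 cultures as replicates, so differences between treatments enter its spread. It called 638 genes higher (16.3% of those tested) and 723 genes lower (18.5%), and of these 1361 genes 1352 had the same sign in all 4 cultures. Counts of list members below are to be read against these shares of all genes. The split between higher and lower depends on the reference level. With values as deposited 102 genes were called higher and 1186 lower, and with arrays set to the spike-ins 117 and 1048. The median gene is 0.25 log2 units lower in the first of these scalings and 0.21 lower in the second. Without 1 culture the count of genes higher was 362 (oxidative stress left out), 380 (reference 1), 408 (reference 2) or 529 (DNA damage), and the count of genes lower was 506, 456, 510 or 679.

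The largest rises belonged to chaperone and general stress genes. HSP26, which encodes a small heat shock protein that binds unfolding proteins, lay at −0.72 and −0.78 on the time 0 arrays and at 2.35 at 5 min in reference 1, on a log2 scale relative to the median gene of the array. In reference 2 it went from −1.39 and −1.50 to 2.37, with oxidative stress from −0.55 and −0.69 to 2.19, and with DNA damage from −1.95 and −1.96 to 2.08. No time 0 array reached any 5 min array, and the 5 min levels of the 4 cultures lay closer together than their starting levels. The mean rise was 3.43 ± 0.20 (limma's standard error, SE, n = 4 cultures, adjusted p = 0.000427), a fold of 10.8. SSA4, an inducible Hsp70 chaperone, lay at 0.007 and −0.14 at time 0 in reference 1 and at −1.18 and −1.19 in reference 2. It rose by 2.47 and 3.53 in references 1 and 2, by 2.65 with oxidative stress and by 2.89 with DNA damage (mean 2.88 ± 0.16). TMA10 is a general stress gene whose protein associates with ribosomes. It rose by 2.82, 2.50, 3.08 and 3.02 in the same order, which is kept below (mean 2.86 ± 0.098). By its time 0 arrays alone TMA10 would not have passed the filter. For HSP26 and SSA4 the ranges of references and stressed cultures overlapped, while for TMA10 both stressed cultures lay above both references. SPI1, which encodes a cell wall protein of stressed cells, rose by 3.06, 2.63, 2.31 and 2.41, with both references above both stressed cultures by a smaller margin than the spread between the references.

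**Figure D1:**
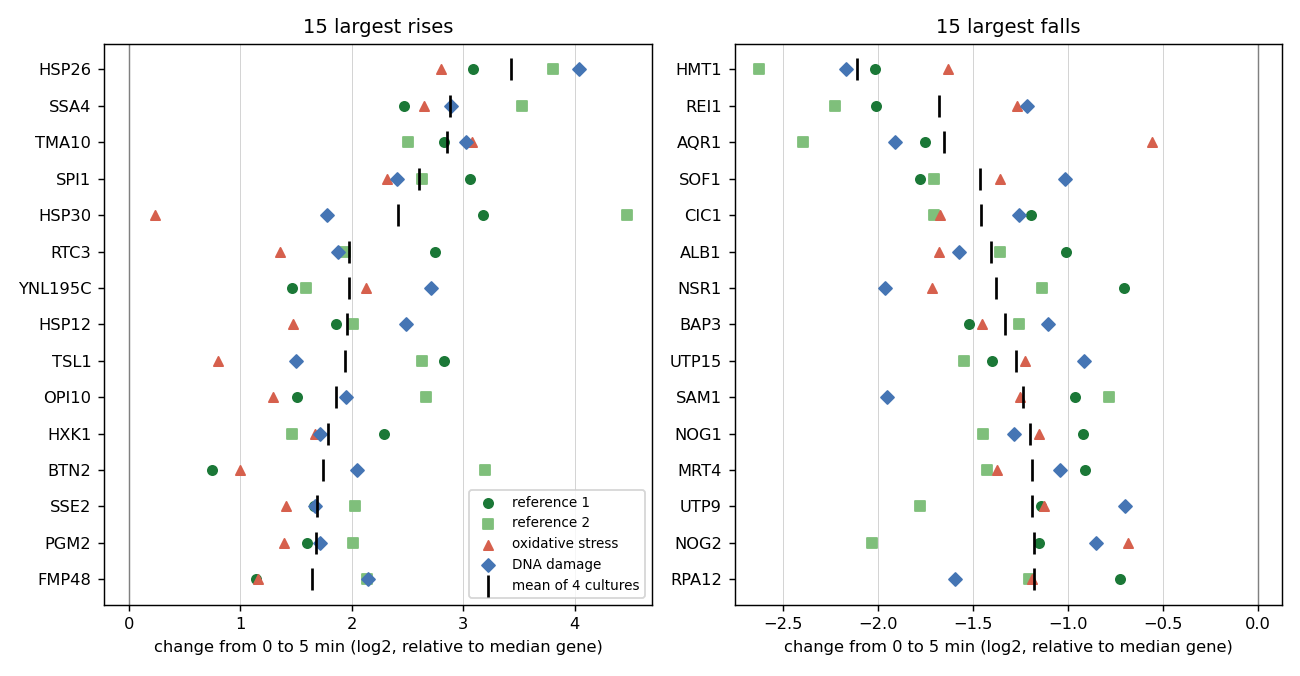
Change from 0 to 5 min in log2 units relative to the median gene for the 15 genes with the largest rises (left) and the 15 with the largest falls (right); each symbol is 1 culture and the black tick is the mean of 4 cultures. HSP26 leads on the left with a mean of 3.43 and HMT1 on the right with −2.11, while HSP30 and AQR1 have their oxidative stress value far from the others.

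The 11 other genes among the 15 largest rises had means from 1.64 (FMP48) to 2.41 (HSP30). HSP12, which encodes a small protein that stabilises membranes, rose by 1.96 ± 0.15. HXK1, a hexokinase, rose by 1.78 ± 0.13 and PGM2, the phosphoglucomutase that supplies glucose-1-phosphate for trehalose and glycogen, by 1.68 ± 0.097. SSE2, an Hsp110 that reloads Hsp70 with nucleotide, rose by 1.69 ± 0.096, with 1.66, 2.03, 1.41 and 1.67 in the 4 cultures. OPI10, the yeast relative of the human Hsp70 importer Hikeshi, rose by 1.85 ± 0.21. YNL195C, a gene without a name, rose by 1.97 ± 0.20, and more in the stressed cultures (2.13 and 2.71) than in the references (1.46 and 1.59).

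A rise of more than 2-fold in all 4 cultures was seen in 16 genes (0.409% of those tested), a count with no test of its own. Besides HSP26, SSA4, TMA10 and SPI1 they were RTC3, YNL195C, HSP12, OPI10, HXK1, SSE2, PGM2, FMP48, HSP78, ICS2, SOL4 and GRE3. Members named for passing 2-fold in a given set of cultures were chosen after their values were seen. HSP78, the disaggregase of the mitochondrial matrix, rose by 1.78, 2.35, 1.13 and 1.08. GRE3, an aldose reductase, rose by 1.20, 1.40, 1.03 and 1.20 and stands just inside the 2-fold limit. CTT1 stands just outside it, with 0.97 in the DNA damage culture.

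The Hsf1 and chaperone list held 42 genes, all of them tested, of which 29 rose and 2 fell, with a median change of 0.46 against −0.0037 for all genes. Without the oxidative stress culture 25 rose and 1 fell. As deposited 18 rose and 5 fell, so the smaller rises of this list depend on the reference level. Members that are strongly inducible led the list: after HSP26, SSA4 and BTN2 came SSE2, HSP78 and HSP82. HSP82, the inducible Hsp90, rose by 1.18, 2.25, 0.98 and 1.05 (mean 1.37 ± 0.21, adjusted p = 0.00441), with reference 2 above the other 3 cultures. HSP104, the disaggregase that rescues aggregated proteins, rose by 0.94, 1.15, 0.74 and 0.77 (mean 0.90 ± 0.077). HSP42, the second small heat shock protein of the cytosol, had a mean rise of 1.23 and SIS1, an Hsp40 partner of Hsp70, of 0.58. Some chaperones that growing cells already hold in quantity moved little, and those named here were chosen after their values were seen. HSC82, the constitutive Hsp90, changed by 0.08, SSA2 by 0.10 and SSE1 by 0.06, and none of these passed the test. HSP104 and HSP82, in contrast, rose though both lay above the median gene on every time 0 array. The 2 members that fell were MGE1 (−0.17), the nucleotide exchange factor of mitochondrial Hsp70, and XDJ1 (−0.28), an Hsp40. The transcript of HSF1 itself changed by 0.12 ± 0.065 (adjusted p = 0.211).

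The general stress list, 50 genes of which 36 passed the filter on low values, had 35 members higher and 0 lower, with a median of 0.94. Because the filter uses the mean over 0 and 5 min arrays, members that are low in all of them are not in this count. Members low at time 0 pass it only where other arrays, such as those at 5 min, are high. The filter thus favours members that rose, and the share of this list that rose is not free of that selection. Without the oxidative stress culture the count was again 35 and 0, and as deposited it was 24 and 0. The list's median was 1.06 in reference 1, 1.20 in reference 2, 0.58 with oxidative stress and 0.97 with DNA damage. It covered trehalose synthesis, where TSL1 rose by 1.94, TPS2 by 1.29 and TPS1 by 0.54, and glycogen synthesis, where GLC3 rose by 1.01, GSY2 by 0.91 and GSY1 by 0.84. It also held GAD1, which makes the stress metabolite GABA (1.39), and GPD1, the first enzyme of glycerol synthesis (0.80). ALD4, a mitochondrial aldehyde dehydrogenase, was the member that missed the test at 0.48. The transcript of MSN2 itself fell by 0.25 ± 0.049 (adjusted p = 0.0107), and did not pass without oxidative stress (limma, adjusted p = 0.0503).

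**Figure D2:**
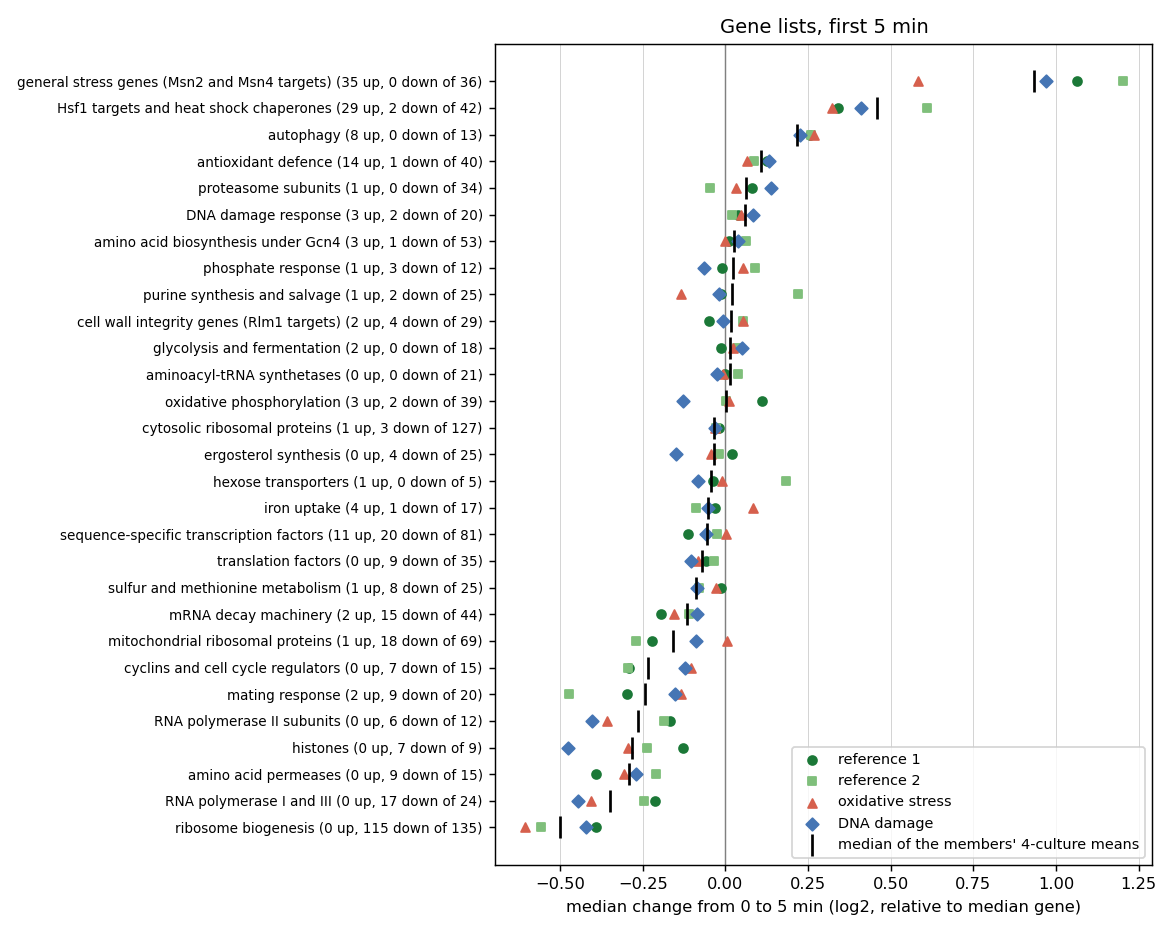
Median change from 0 to 5 min for 29 gene lists in log2 units relative to the median gene, with 1 symbol per culture and a black tick for the median of the members' means; the labels give the members called up and down of those tested. The general stress list lies between 0.58 and 1.20, the ribosome biogenesis list between −0.61 and −0.39, and the cytosolic ribosomal protein list close to 0.

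Ribosome assembly genes made up most of the 15 largest falls, but not the largest. That was HMT1, the main arginine methyltransferase of yeast, which modifies RNA-binding proteins. It lay at 1.18 and 1.19 at time 0 and at −0.82 at 5 min in reference 1, again relative to the array's median gene. It went from 1.31 and 1.39 to −1.26 in reference 2, from −0.13 and −0.08 to −1.72 with oxidative stress, and from 0.08 and 0.08 to −2.08 with DNA damage. Every 5 min array lay below every time 0 array, and the stressed cultures had started lower than the references. The mean change was −2.11 ± 0.15 (n = 4 cultures, limma, adjusted p = 0.000594), a fold of 0.232 relative to the median gene. REI1, a factor in the last cytosolic steps of the large ribosomal subunit, changed by −2.01, −2.23, −1.27 and −1.22 in the order given above (mean −1.68 ± 0.18). Both references fell further than both stressed cultures, which had lower levels of REI1 at the start. The deposited values of REI1 at 5 min were 10.1 to 10.9, below the filter limit of 11.50. Whether this probe set was near a lower limit of its own was not tested.

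Most of the other large falls were in ribosome assembly. SOF1 (−1.46 ± 0.13), UTP15 (−1.27 ± 0.10) and UTP9 (−1.19 ± 0.16) encode parts of the small-subunit processome, the particle that builds the small ribosomal subunit. CIC1 (−1.46 ± 0.10), ALB1 (−1.40 ± 0.11), NOG1 (−1.20 ± 0.086), MRT4 (−1.19 ± 0.096) and NOG2 (−1.18 ± 0.21) encode factors of the large subunit. RPA12 (−1.18 ± 0.13) encodes a subunit of RNA polymerase I, which transcribes ribosomal RNA. NSR1, the nucleolin of yeast, fell by 0.71, 1.14, 1.72 and 1.96 on the log2 scale, more in both stressed cultures than in both references. Other large falls were in membrane transport: BAP3, a permease for branched-chain amino acids (−1.33 ± 0.077), and AQR1, a plasma membrane exporter (−1.65 ± 0.27). The deposited 5 min values of AQR1 were 10.4 to 10.7, also below the filter limit of 11.50. In metabolism, SAM1, which makes S-adenosylmethionine, was among the large falls (−1.24 ± 0.18).

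A fall of more than 2-fold in all 4 cultures was seen in 7 genes (0.179% of those tested): HMT1, REI1, SOF1, CIC1, ALB1, BAP3 and SPB1. SPB1, a methyltransferase of the large subunit, had a mean of −1.07, with values in the last 3 cultures between −1.10 and −1.08, and stands just inside the limit in reference 1. Without the oxidative stress culture 30 genes were more than 2-fold higher and 12 more than 2-fold lower in the other 3. The count lower was 12 without reference 1 and 11 without DNA damage. A gene past the limit in all 4 cultures is past it in any 3, so these counts could only stay or grow.

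Of the 135 ribosome biogenesis genes tested, 115 fell and 0 rose, with a median of −0.50. The medians of the single cultures were −0.39, −0.56, −0.61 and −0.42. Without the oxidative stress culture 94 fell, and as deposited 129 fell, with 0 higher both times. The 20 that passed no test had changes from −0.01 (REA1) to −0.36 (NOP1). NOP56, a core protein of box C/D particles, fell by 0.26 ± 0.065 on the log2 scale, a call that was lost without reference 1, oxidative stress or DNA damage (limma, adjusted p = 0.0598, 0.0907 and 0.0589). The RNA polymerase I and III list had 17 of 24 members lower and 0 higher (median −0.35), led by RPA12 and RPA34, and 11 lower without oxidative stress. The RNA polymerase II list had 6 of 12 lower (median −0.26), 3 without oxidative stress, and 4 of these 6 (RPB5, RPC10, RPO26 and RPB8) are subunits common to all nuclear polymerases. RPO21, the largest subunit of RNA polymerase II, changed by −0.43, −0.15, 0.10 and −0.48, a mean of −0.24 ± 0.10 that did not pass the test (adjusted p = 0.110). It passed as deposited (limma, adjusted p = 0.00483), set to the spike-ins (0.00725) and without oxidative stress (0.0343).

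The mature protein parts of the ribosome behaved otherwise. Of 127 cytosolic ribosomal protein genes 1 rose and 3 fell, with a median of −0.034 and culture medians between −0.032 and −0.021. RPL3 changed by 0.010, −0.010, −0.002 and 0.063 (mean 0.015 ± 0.044). Its deposited values at 5 min were 15.7 to 16.6, and whether its probe set was near an upper limit was not tested. By 30 min the list's median was −0.84 with DNA damage and between −0.13 and 0.008 in the other cultures. Several of these genes share their probe set with a nearly identical copy, so a change in 1 copy could be masked. The 4 that passed were RPL15B (0.28), RPS27A (−0.27), RPL22B (−0.32) and RPS9A (−0.63). With any 1 culture other than reference 1 left out, 1 gene of the list fell. As deposited the list's median was −0.28, with 13 genes lower. Of 69 mitochondrial ribosomal protein genes 18 fell and 1 rose, with medians of −0.22 and −0.27 in the references, 0.004 with oxidative stress and −0.09 with DNA damage. The count lower was 2 without reference 1, 4 without reference 2 and 18 without oxidative stress.

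**Figure D3:**
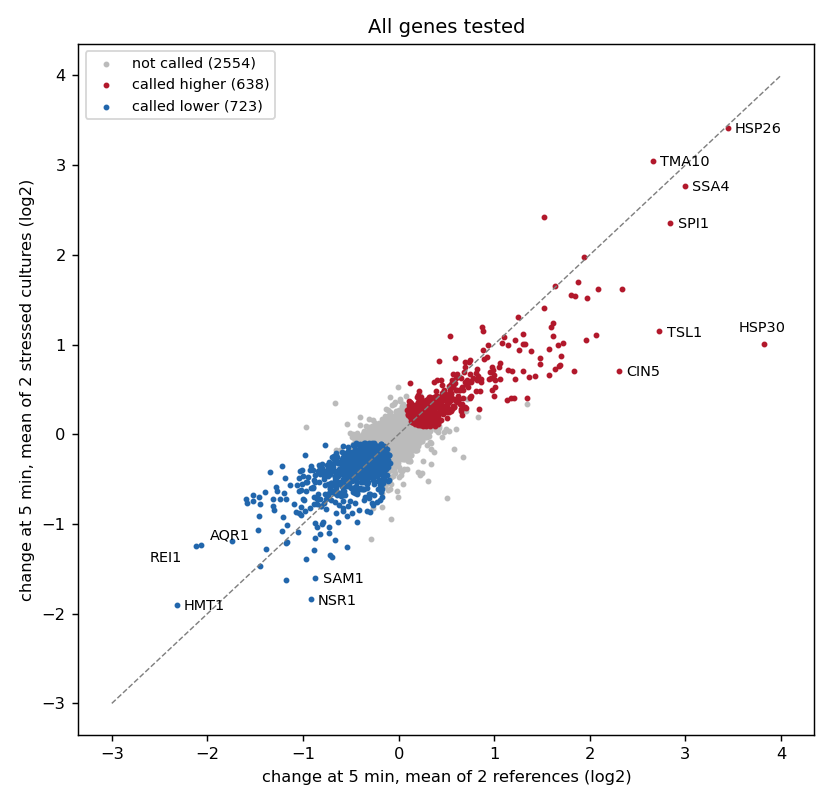
Change from 0 to 5 min of all 3915 genes tested, as the mean of both references (horizontal) against the mean of both stressed cultures (vertical), in log2 units relative to the median gene; red and blue points are the 638 and 723 genes called higher and lower, and the dashed line marks equal change. HSP26 and TMA10 lie close to that line, HSP30, TSL1 and CIN5 below it, and NSR1 and SAM1 fell further in the stressed cultures.

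The cultures shared much of this change. Across the 3915 genes the Pearson correlation of the changes was 0.865 between the references and 0.739 to 0.788 between any other pair of cultures, which share no array. Genes are not independent replicates, and these values carry no test. In at least 1 culture 83 genes rose by more than 2-fold, 28 of them in 1 culture, 21 in 2, 18 in 3 and 16 in all 4. Among the 103 genes that were more than 2-fold lower in at least 1 culture the numbers were 50, 32, 14 and 7. Per culture 50, 71, 25 and 42 genes were past 2-fold higher and 39, 72, 37 and 36 lower.

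For some of the leading rises that differed between cultures, the levels before the shift differed too, and cultures that started higher rose less. YNL195C went otherwise: with oxidative stress it started highest, at −1.21 on both time 0 arrays, and rose more there than in both references. HSP30 encodes a plasma membrane protein that restrains the proton pump Pma1 under stress. Its time 0 levels relative to the median gene were −0.29 and −0.40 in reference 1, −1.46 and −1.51 in reference 2, 3.06 and 3.15 with oxidative stress, and 1.15 and 1.16 with DNA damage. At 5 min the references lay at 2.84 or just above, the oxidative stress culture at 3.35 and the DNA damage culture at 2.93. The cultures, spread over an SD of 1.99 log2 units at time 0, lay within an SD of 0.22 at 5 min. The oxidative stress culture, which was high at the outset, changed by 0.23, and reference 2, the lowest, by 4.47 (mean of 4 cultures 2.41 ± 0.62, adjusted p = 0.0269). The call was lost without reference 1 (limma, adjusted p = 0.111) and without reference 2 (0.06). The deposited values of HSP30 at 5 min were 15.3 to 16.5, where the highest value on these arrays was 17.5 and 251 probe sets exceeded 16 at 5 min. Whether this probe set was near an upper limit of its own was not tested.

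BTN2, a factor that gathers misfolded proteins into deposits, had the same form with other cultures high. It started at 2.05 and 2.03 in reference 1, −0.41 and −0.43 in reference 2, 1.78 and 1.87 with oxidative stress and 0.58 and 0.58 with DNA damage. At 5 min it stood at 2.79, 2.78, 2.83 and 2.63, an SD of 0.09 against 1.15 before. Here the references themselves lay farthest apart at the start, and reference 1 stood near the oxidative stress culture. TSL1, a subunit of the trehalose synthase, and CIN5, a transcription factor of the Yap family, kept more of their starting differences. TSL1 went from an SD of 1.37 to 0.45 and CIN5 from 1.49 to 0.49, and in both the oxidative stress culture was highest at 0 and at 5 min.

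This narrowing was common among the leading rises: 13 of the 15 had a smaller SD between cultures at 5 min than at 0 min, and the median SD went from 0.63 to 0.37. Among the 15 largest falls 7 had a smaller SD, with medians of 0.61 and 0.57. Over all 3915 genes 30.7% had a smaller SD at 5 min, and the medians were 0.22 and 0.26. Starting level and change share the time 0 arrays, so these are descriptions with no test.

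**Figure D4:**
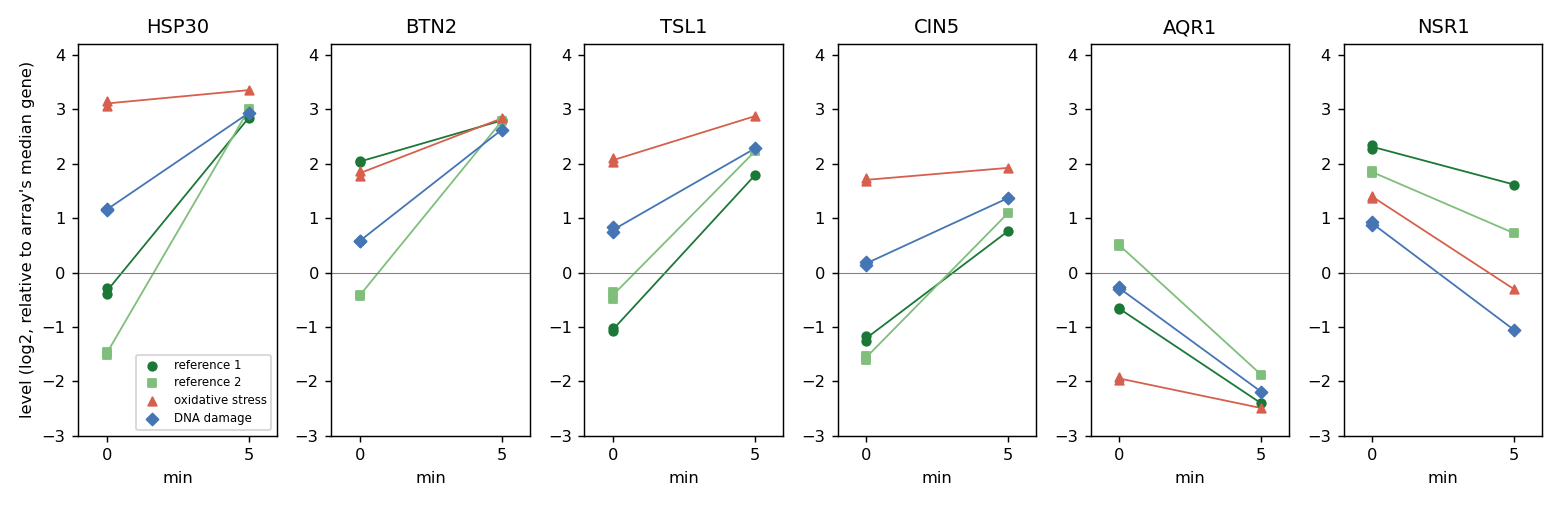
Level of 6 genes relative to the array's median gene (log2) at 0 min, where both arrays of a culture are drawn, and at 5 min, with 1 colour and symbol per culture and lines from the time 0 mean. The 4 cultures meet at 5 min for HSP30 (2.84 to 3.35) and BTN2 (2.63 to 2.83), and draw apart for NSR1 (−1.05 to 1.62).

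High levels before the shift did not always go with a small rise. CTT1, the cytosolic catalase, lay at 1.07 at time 0 in the oxidative stress culture and between −1.96 and −1.90 in the other cultures. It rose there by 1.04, against 1.15 and 1.49 in the references and 0.97 with DNA damage. The difference that the peroxide culture had at the start was therefore still present at 5 min, at 2.12 against −0.92 to −0.46.

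The formal comparison of stressed cultures with references found no gene past the threshold. Oxidative stress against both references, DNA damage against both references and both stressed cultures against both references gave 0 genes each (0% of 3915), with 232, 430 and 409 genes at an unadjusted p below 0.05 and smallest adjusted p-values of 0.199, 0.296 and 0.251 (limma). The first pair of tests had 1 residual degree of freedom and the last had 2, and all 3 share the references. Some named genes had nominal differences. For HSP30 the stressed minus reference difference in change was −2.82 ± 0.60 (unadjusted p = 0.00397, adjusted p = 0.411), for TSL1 −1.58 ± 0.23 (adjusted p = 0.251), and for REI1 0.88 ± 0.11 (adjusted p = 0.251). For CLN2, a cyclin of the G1 phase, it was 0.87 ± 0.12 (limma, adjusted p = 0.251). CLN2 changed by −1.11 and −1.34 in the references and by −0.26 and −0.45 in the stressed cultures. Deposited 5 min values were 10.8 to 11.4 for CLN2 and 10.1 to 10.9 for REI1, below the filter limit of 11.50. Whether a lower limit of these probe sets entered the differences was not tested. At 10 min in place of 5 min the same tests called 155 genes for oxidative stress, 536 for DNA damage and 0 for both together. The first pair of counts rests on 1 stressed culture each, assumed to vary like the references, so it holds no spread of the stressed condition.

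The sets of cultures past 2-fold were unequal in size, as descriptions with no test. Both references alone were past 2-fold higher in 12 genes, among them TPS2, HSP42 and ERO1, and the references with DNA damage in 14, among them HSP30, TSL1, CIN5, HSP82, GAD1 and DDR2. The references with oxidative stress shared 2 (CTT1 and PIN3), and no gene was past 2-fold higher in both stressed cultures and neither reference. Oxidative stress alone was past 2-fold for 4 genes: SSA3, CWP1, TPO1 and PDR12. PDR12, an exporter of weak acids, changed by 0.67, 0.48, 1.05 and −0.42, the opposite sign in the DNA damage culture. TPO1, a polyamine exporter, changed by 0.49, 0.69, 1.30 and 0.39. Its level at time 0 was −0.26 with oxidative stress and 0.97 in both references, and at 5 min 1.05 against 1.47 and 1.67. CWP1, a cell wall mannoprotein, was likewise lowest at time 0 in that culture (−0.53) and rose there by 1.23.

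Among falls, 19 genes were past 2-fold lower in both references alone, and 9 of them are NOG2, UTP6, RRP9, RSA4, RCL1, UTP30, UTP18, DBP6 and UTP25, all ribosome assembly genes. The opposite set, past 2-fold in both stressed cultures alone, had 6 genes: SAM1, YLR363W-A, ECM1, RLP24, TSR2 and RRS1. RRS1, an assembly factor that brings 5S RNA into the large subunit, changed by −0.39, −0.69, −1.06 and −1.46. UTP6, a processome part, changed by −1.37, −1.68, −0.97 and −0.51. Members of the biogenesis list thus differed in which cultures fell further, and neither difference passed the test of stressed against reference cultures over all genes.

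Of 81 sequence-specific transcription factors tested 11 rose (13.6%) and 20 fell (24.7%), against 16.3% and 18.5% of all genes. Quantile normalization gave 12 and 15, and without reference 1 the numbers were 8 and 13. CIN5 rose by 1.96, 2.64, 0.21 and 1.20 in the 4 cultures, a call that was lost without reference 1 (limma, adjusted p = 0.0925). TYE7, an activator of glycolytic genes, rose by 1.04 ± 0.088, and NRG1, a repressor of glucose-repressed genes, by 0.93 ± 0.16. TYE7 rose by 0.72, 1.03, 1.19 and 1.20, with both stressed cultures above both references. HAP4, the activator of respiratory genes, rose by 0.73. RPN4, the activator of proteasome genes, changed by 0.45, 1.23, 0.11 and 0.45, with reference 2 highest (mean 0.56 ± 0.17, limma, adjusted p = 0.0426). That call was lost as deposited (0.0853), with quantile normalization (0.0507), with the filter at the median (0.0558), with the first time 0 array (0.0501), without reference 1 (0.111) and without DNA damage (0.073). RPN4 was also the 1 member called among the 34 genes listed for the proteasome, so 0 genes for proteasome subunits passed the test (list median 0.062). Among the falls were TOD6 (−0.89), a repressor of ribosome biogenesis genes, BAS1 (−0.85), SKN7 (−0.75), STE12 (−0.74) and SFP1 (−0.48), an activator of ribosomal genes.

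Some genes of the cell cycle and of mating fell. Of 15 cyclins and cell cycle regulators 7 fell and 0 rose (median −0.24), and without reference 1 3 fell. FAR1, the inhibitor that halts cells in G1 on pheromone, fell by 1.31, 1.62, 0.87 and 0.54 on the log2 scale, more in the references than in the stressed cultures. Of 20 mating genes 9 fell and 2 rose (median −0.24), and without reference 1 4 fell and 1 rose. FUS1, a gene of cell fusion, was at −0.73 ± 0.16, a call that was lost without reference 1 (limma, adjusted p = 0.0643). Of 9 histone genes 7 fell and 0 rose (median −0.28), and 3 fell without oxidative stress and 4 without reference 2. They were led by HTA1 (−0.52) and HHT1 (−0.52), and HTA2 and HHF1 share probe sets with another gene copy. RNR1, the large subunit of ribonucleotide reductase, fell by 1.07 ± 0.15 and was the largest change among 20 DNA damage genes. Of that list 3 rose (15%) and 2 fell (10%), below the shares of all genes (16.3% and 18.5%). The count that rose was 0 or 1 with any 1 culture left out.

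Nutrient transport and mRNA turnover genes also fell in part. Of 15 amino acid permeases 9 fell and 0 rose, led by BAP3, AGP1 (−0.97 ± 0.092) and TAT2 (−0.75 ± 0.074). In sulfur metabolism 8 of 25 genes fell and 1 rose, with 4 lower without reference 1 and 5 without reference 2. They were led by SAM1 and by MET6, the methionine synthase (−0.63 ± 0.064). Of 44 genes of mRNA decay 15 fell and 2 rose. Of the 15, RRP45, MTR3, RRP40, RRP43, CSL4, RRP46, RRP4, DIS3, RRP6 and SKI6 encode parts of the exosome, which also processes ribosomal RNA. The members that rose were EDC2, an enhancer of decapping (0.68 ± 0.095), and DHH1, a helicase of decapping complexes (0.44). XRN1, the main cytoplasmic exonuclease, changed by 0.02 and did not pass.

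Of 40 antioxidant genes 14 rose and 1 fell (median 0.11), with CTT1 first and PRX1, a mitochondrial peroxiredoxin, next at 0.42 ± 0.087. The count that rose was 4 without reference 1, 6 without reference 2 and 9 without oxidative stress or DNA damage, and the call of PRX1 was lost without reference 1 (limma, adjusted p = 0.0622). As deposited 1 rose and 3 fell, and the median was −0.14. Of 13 autophagy genes 8 rose and 0 fell (median 0.22), with ATG8 at 0.50 ± 0.096, and without reference 1 4 rose and ATG8 did not pass (adjusted p = 0.0521). As deposited 0 rose and 1 fell, so that direction holds against the median gene alone.

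The values at 5 min were early points of longer courses, which share the time 0 arrays with them. HSP26 stood at a mean of 3.43, 4.28, 4.49, 4.56 and 4.68 at 5, 10, 15, 20 and 30 min, so most of its rise lay in the first 5 min. SSA4 went from 2.88 at 5 min to 3.98 at 30 min. The means of BTN2 and HSP30 came down again: BTN2 was at 1.74 at 5 min and 0.80 at 30 min, and HSP30 at 2.41, 2.69 at 10 min and 1.06 at 30 min. In the DNA damage culture BTN2 did not follow this course, with 2.04 at 5 min, 2.21 at 15 min and 1.80 at 30 min. In the oxidative stress culture CIN5 was at 0.21 at 5 min and −1.34 at 30 min, below its starting level, while in reference 1 it kept 1.72.

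**Figure D5:**
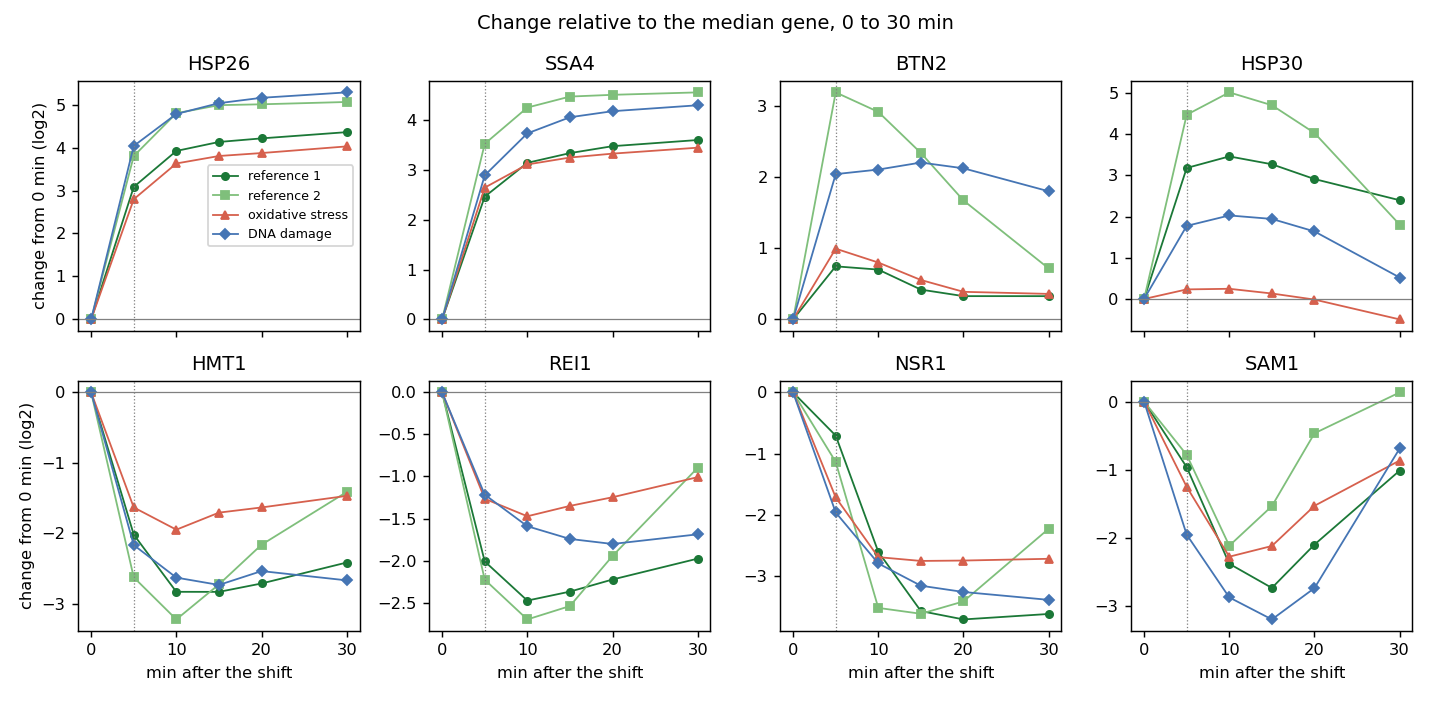
Change from time 0 (log2, relative to the median gene) of 8 genes at 5, 10, 15, 20 and 30 min in each culture; the dotted line marks 5 min and the vertical scale differs between panels. HSP26 and SSA4 stay high, the means of BTN2 and HSP30 come down again though BTN2 stays at 1.80 with DNA damage, HMT1 has most of its fall by 5 min, and NSR1 goes from a mean of −1.38 at 5 min to −3.28 at 20 min.

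The falls differed in speed. HMT1 stood at −2.11 at 5 min, −2.66 at 10 min and −1.99 at 30 min. NSR1 was at −1.38 at 5 min, −2.90 at 10 min and −3.28 at 20 min, with reference 2 back at −2.23 by 30 min. SAM1 fell to a mean of −2.41 at 10 min and came back to −0.61 at 30 min, when reference 2 was at 0.13. BAP3 went from −1.33 at 5 min to −0.54 at 30 min. The list medians followed the same split. Averaged over the 4 cultures, the general stress list was at 0.95, 1.53, 1.74, 1.77 and 1.68 at 5 to 30 min, the Hsf1 and chaperone list at 0.42, 0.59, 0.58, 0.51 and 0.49, and the ribosome biogenesis list at −0.49, −1.28, −1.83, −1.96 and −1.79. The chaperone list thus stood at 0.42 at 5 min against its highest value of 0.59 at 10 min. The biogenesis list had reached 25.2% of its 20 min change, the largest at these times. From 5 to 30 min the chaperone median went from 0.34 to 0.45 in reference 1 and from 0.61 to 0.44 in reference 2. It went from 0.32 to 0.44 with oxidative stress and from 0.41 to 0.64 with DNA damage.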

How the data were processed

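The arrays were Affymetrix Yeast Genome 2.0 (a 1-colour microarray), and the authors deposited 1 log2 value for each probe set. The submitters' processing notes name RMA. Its version and the way arrays were scaled to each other were not given in the sources used here. Array medians at 0 and 5 min ran from 11.65 to 12.85, so the arrays were not on a common scale and each culture's change was centred on its median gene. The number of arrays limits the precision. Of 5900 probe sets 5498 had 1 gene in the platform annotation, 0 had several and 402 had none. They gave 5449 genes (12 symbols updated through RefSeq's gene table), each by its brightest probe set, and 61 tested genes share a probe set with another gene. Genes with a mean over the 12 arrays above 11.50 log2, the 30th percentile, were tested, which left 3915.

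Changes were tested with lmFit and eBayes of limma 3.58.1 (R 4.3.3, Benjamini-Hochberg at 0.05), with the culture as the replicate and no batch in the labels. Nothing says that the 5 min arrays were repeated, so p-values measure the spread between 4 cultures. Levels were centred on each array's median gene, so a difference of levels departs from a change by up to 0.016. The 29 lists from textbook knowledge held 1257 entries, of which 1229 matched, and the members and lists were chosen with earlier results of these data known. Genes named are the 15 largest rises and 15 largest falls among genes called with the same sign in 4 cultures, 3 leading members per list, 10 fixed genes (RPO21, HSF1, MSN2, HSP26, HSP104, HSP82, SSA4, BTN2, RPL3 and NOP56), and others named for their list or their 2-fold pattern after their values were seen. Alternatives covered scaling, the filter, probe sets, time 0 arrays, time points, the replicate unit and leaving out cultures. Scripts were tested on simulated data. Promoter motifs were planned and were not analysed here.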

Additional observations from a re-analysis of the deposited data

Results flagged for a closer look

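In 6 of the 104 named genes 1 culture lay apart from the other 3 by Dixon's test at 95%. That test picks about 1 in 20 groups by chance, so a count of this order would arise with no real outlier. The genes are listed as a description. HSP82 rose by 2.25 in reference 2 and by 0.98 to 1.18 in the other cultures. ATP20, a subunit of the ATP synthase, changed by −0.74 in reference 2 and −0.31 to −0.29 elsewhere. The oxidative stress culture lay apart in the other 4. RPA34, an RNA polymerase I subunit, changed there by −1.47 against −0.88 to −0.83. AGP1 changed there by −0.62 against −1.12 to −1.04. MSG5, a phosphatase of the mating and cell wall pathways, changed by −0.30 against −0.56 to −0.54. ALA1, the alanyl-tRNA synthetase, changed by −0.078 against −0.11 in each of the others, a gap smaller than the SD between time 0 arrays.

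Of 131 yeast probe sets that pass the filter and have no gene in the annotation used, 1 rose more than 2-fold in all 4 cultures. Probe set 1771951_at had a mean change of 1.96, with 1.17 to 2.58 in single cultures. It stands outside the comparisons above, which use named genes.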

How the results depend on the processing

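The main counts were 638 genes higher and 723 lower in the mean of 4 cultures, 16 and 7 past 2-fold in all 4, and 0 in each stress comparison. As deposited, 102 were higher, 1186 lower, 1 differed with oxidative stress and 3 between stressed and reference cultures. With arrays set to the spike-ins 117 were higher. With the filter at the median the counts were 420 higher, 453 lower and 4 past 2-fold lower. Without a filter 53 and 72 genes differed with oxidative stress and DNA damage and 4 were past 2-fold lower. Quantile normalization gave 4 past 2-fold lower. With the first time 0 array alone 32 and 57 genes differed with oxidative stress and DNA damage, and with the second 1 differed with oxidative stress. With 10 min for 5 min, 155 and 536 differed, and 44 and 70 were past 2-fold higher and lower. The mean of 5 and 10 min gave 32 and 35, and a 1.5-fold limit 49 and 51. With 12 arrays as replicates 1089 were higher, and with no culture block 9 were higher and 2 lower. The cause was not tested beyond what each setting changes. Leaving out 1 culture gave 362 to 529 genes higher, 456 to 679 lower, and 16 to 30 and 7 to 12 past 2-fold. The 2-fold counts can only stay or grow when a culture is left out.

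Single genes changed sign as deposited: HOM3 (−0.025), DUN1 (−0.038), FIT3 (−0.046), ADE16 (−0.051) and HIS2 (−0.078). Set to the spike-ins they were FIT3 (−0.0057), ADE16 (−0.011) and HIS2 (−0.037), and with 10 min RAD52 (0.0074). Of the values of named genes under all alternatives 1642 kept side and sign, 189 lost the call, 13 gained it and 9 changed sign. The oxidative stress and DNA damage comparisons could not be tested without 1 reference, since no residual degree of freedom is left. The change is itself paired within each culture, which is what the setting with no culture block removes. The labels give no replicate number that pairs one culture with another. The precision of every value is limited by having 1 array per culture at 5 min and 4 cultures.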

Other observations

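Lists of housekeeping metabolism moved little in the first 5 min. Each list named next had smaller shares called than all genes, of which 16.3% rose and 18.5% fell. Of 21 aminoacyl-tRNA synthetases 0 passed the test (limma, median 0.013), and ALA1 had the largest change at −0.10. Of 53 genes of amino acid synthesis under Gcn4 3 rose and 1 fell (median 0.025), with CPA1, a subunit of carbamoyl phosphate synthetase, at −0.47. With any 1 culture left out 0 of the 3 rises passed. Of 18 glycolysis and fermentation genes 2 rose and 0 fell (median 0.014): PDC5, a pyruvate decarboxylase (0.44 ± 0.054), and TDH1, a glyceraldehyde-3-phosphate dehydrogenase (0.28 ± 0.053). In oxidative phosphorylation 3 of 39 genes rose and 2 fell (median 0.0028), and 6 rose without DNA damage, with COX5B, the form of cytochrome oxidase subunit V made at low oxygen, at 0.44 ± 0.083. Of 25 purine genes 1 rose and 2 fell (median 0.021), and AAH1, the adenine deaminase, fell by 1.09 ± 0.098 on the log2 scale with 0.75, 1.01, 1.32 and 1.27 in reference 1, reference 2, the oxidative stress culture and the DNA damage culture.

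A few lists had single strong members. Of 35 translation factors 9 fell and 0 rose (median −0.071), led by NIP1, a subunit of eIF3 (−0.88 ± 0.092), and DED1, a helicase of initiation (−0.86 ± 0.11). The count was 2 without oxidative stress, 3 without reference 2 and 4 without reference 1 or DNA damage. Of 25 ergosterol genes 4 fell (16%, against 18.5% of all genes) and 0 rose (median −0.035), with ERG5 at −0.72 ± 0.10. Without oxidative stress 1 fell. Of 29 cell wall genes 2 rose (6.9%) and 4 fell (13.8%), below the shares of all genes (16.3% and 18.5%). The median was 0.015, with CWP1 at 0.75 ± 0.14 and MID2, a cell wall stress sensor, at −0.44 ± 0.043. Of 17 iron uptake genes 4 rose (23.5%) and 1 fell (5.9%), with a median of −0.053 and FIT2 at 0.50 ± 0.049. As deposited 0 rose and 4 fell. Without reference 2 or oxidative stress 1 rose, and without DNA damage 2. Of 12 phosphate genes 1 rose (8.3%) and 3 fell (25%), with a median of 0.023. HXT7, a high-affinity glucose transporter that shares its probe set with a near-identical copy, rose by 0.70 ± 0.062 and was the 1 member of 5 hexose transporters to pass.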
